A study of Mus musculus with 3 samples.

Results

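The enzymes of serine synthesis and of the folate one-carbon cycle are described here in activated mouse CD4 T cells as 9 genes, taken by their symbols: Phgdh, Psat1 and Psph, which make serine, Shmt1, Shmt2, Mthfd1, Mthfd1l and Mthfd2, which pass its carbon through folate, and Tyms, which uses that carbon to make thymidylate. All 9 symbols had a row among the 23282 gene rows of the series, and all 9 were abundant enough to be tested. CD4 T cells came from the spleen and lymph nodes of mice labelled C57BL/6, which the study's methods give as C57BL/6J, with no genetic change given. All cells were stimulated for 72 h with 2 µg/ml of anti-CD3/CD28 antibody, and the cultures differed in their medium. CM was complete medium, DM was dialyzed medium, which joins an RPMI base lacking amino acids to dialyzed serum, and DM+Met was DM given 30 µM methionine. The study asked how a shortage of nutrients, and of methionine among them, changes these T cells. There were 2 libraries per medium, each made from 500 ng of total RNA with a kit that reads transcripts near their 3′ ends.

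Cells make serine from a glycolytic intermediate through 3 successive enzymes, and serine hydroxymethyltransferase then transfers a carbon from serine to tetrahydrofolate. That step and the following dehydrogenase and ligase steps exist once in the cytosol and once in mitochondria, and the mitochondrial set releases formate that the cytosol uses for purines and thymidylate. Activated T cells are known to induce the mitochondrial set, and the cycle meets methionine metabolism where a folate-bound methyl group turns homocysteine back into methionine.

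Values are log2 of CPM, the reads of a gene as a rate over all reads of its library, plus 1 as deposited, after scaling of each library by trimmed means (TMM). Depth was 8504826 to 12377769 reads per library. The ribosomal row Rn45s took 31.0% to 38.3% of the reads in CM and DM and 15.5% and 20.1% in DM+Met, and the scaling factors were 0.897 to 0.938 and 1.16 and 1.22, respectively. The 6 CD4 T cell markers were read in every library, with a summed level of 1231 to 1480 CPM. Of these, Cd28 was lower and Cd3g higher in DM than in CM, by log2 changes of −0.53 and 0.72 (limma adjusted p = 0.049 and 0.0349). Of all tested rows, 9.07% were lower and 7.8% higher in that comparison. The 4 B cell markers summed to 54.0 to 80.7 CPM per library, and 0 of them passed the test in any comparison. The 4 CD8 T and NK cell markers summed to 66.5 and 74.2 CPM in CM and 26.3 and 35.9 in DM, with 27.1 and 32.2 in DM+Met, with Klrb1c at 0 reads in both CM libraries and Ncr1 in 1 of them. Of the 3 that were tested, Cd8a was lower than in CM under both dialyzed media, as were 9.07% (DM) and 8.36% (DM+Met) of all tested rows. Klrb1c was abundant enough to be tested only through the dialyzed media, so its test is not read here. The 6 myeloid markers summed to 15.4 and 19.7 CPM in CM and 33.9 and 44.9 in DM, with 32.2 and 50.5 in DM+Met. Itgam and Adgre1 were at 0 reads in CM library 2 and DM library 1. Lyz2, 1 of the 6, had 3 reads in CM library 1 and 15 in CM library 2, against 77 and 85 for DM. As with Klrb1c, Lyz2 was abundant enough to be tested only through the dialyzed media, so its test is not read either. The part of these cells in the results that follow was not tested. In bulk RNA, fewer cells of a type and less RNA per cell cannot be told apart.

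The 9 genes had 10 promoter windows in RefSeq (GRCm38.p6), each from 250 bases before a transcription start to 50 bases after it, and Psat1 had 2 of them. The windows of the 4 genes whose level passed the test in some comparison, for Psat1 the first only, are shown with that of Shmt2, which did not. All are read on each gene's own strand. Capitals mark CCAAT, or ATTGG where the word lies on the other strand. These are chr3:98339920-98340219 for Phgdh, chr19:15925010-15925309 for Psat1, chr5:129787204-129787503 for Psph and chr10:127522395-127522694 for Shmt2, all on the minus strand, and chr12:76254982-76255281 on the plus strand for Mthfd1.
Phgdh: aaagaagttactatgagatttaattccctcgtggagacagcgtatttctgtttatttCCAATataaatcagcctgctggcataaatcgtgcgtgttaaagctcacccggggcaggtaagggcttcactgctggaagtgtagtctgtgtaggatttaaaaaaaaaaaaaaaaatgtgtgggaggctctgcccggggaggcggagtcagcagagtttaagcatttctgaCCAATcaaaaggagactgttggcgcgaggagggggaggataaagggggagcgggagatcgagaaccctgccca
Psat1: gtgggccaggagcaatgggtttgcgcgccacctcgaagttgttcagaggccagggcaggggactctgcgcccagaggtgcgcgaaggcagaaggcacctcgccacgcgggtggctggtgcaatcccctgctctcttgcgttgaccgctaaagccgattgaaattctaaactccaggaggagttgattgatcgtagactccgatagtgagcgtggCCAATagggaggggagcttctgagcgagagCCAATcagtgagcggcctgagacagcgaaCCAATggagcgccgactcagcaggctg
Psph: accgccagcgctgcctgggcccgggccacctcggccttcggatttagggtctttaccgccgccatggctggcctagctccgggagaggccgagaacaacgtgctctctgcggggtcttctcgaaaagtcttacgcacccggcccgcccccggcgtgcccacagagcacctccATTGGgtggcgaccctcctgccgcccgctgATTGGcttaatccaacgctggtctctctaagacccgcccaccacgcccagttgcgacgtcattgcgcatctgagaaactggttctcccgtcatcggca
Mthfd1: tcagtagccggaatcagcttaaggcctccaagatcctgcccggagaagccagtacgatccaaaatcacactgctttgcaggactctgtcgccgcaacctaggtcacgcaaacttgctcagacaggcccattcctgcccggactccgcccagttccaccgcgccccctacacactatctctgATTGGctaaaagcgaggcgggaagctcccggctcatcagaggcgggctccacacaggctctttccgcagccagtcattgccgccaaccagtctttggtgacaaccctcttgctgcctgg
Shmt2: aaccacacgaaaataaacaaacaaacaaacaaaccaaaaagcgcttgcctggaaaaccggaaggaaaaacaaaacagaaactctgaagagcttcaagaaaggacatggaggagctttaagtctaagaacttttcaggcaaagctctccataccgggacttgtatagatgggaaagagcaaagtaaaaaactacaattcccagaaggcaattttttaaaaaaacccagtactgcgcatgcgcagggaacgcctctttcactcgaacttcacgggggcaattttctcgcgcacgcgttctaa

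CCAAT, searched on both strands, stood in 6 of the 10 windows, against 37.4% of all 32851 RefSeq windows of this length. The word was searched for after the sequences had been seen. Phgdh held it 2 times, from -193 to -189 and from -23 to -19 bases relative to the start, the first Psat1 window 3 times, Psph 2 times, Mthfd2 3 times, and Shmt1 and Mthfd1 once each. Shmt2, Mthfd1l, Tyms and the second Psat1 window did not hold it. Mthfd2 and Shmt1, which hold it, passed the test in no comparison. The word TGATGNAA, the core of the element to which ATF4 binds with its partners, was in 0 of the 10 windows and in 3.97% of all windows. CACGTG, an E-box, was in the Tyms window alone, from -61 to -56, and in 7.15% of all windows. TTTGGCGC or TTTCGCGC, words of the E2F factors, were in none of the 10 and in 0.813% of all. A match or its absence describes these letters and says nothing of binding.

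All 3 genes of serine synthesis had their lowest CM library above their highest DM library, as did 26.2% of all 12770 tested rows, and Psph of the 3 did not pass the test. Of the 9 genes, 3 passed the test between DM and CM, all lower in DM (Phgdh, Psat1 and Mthfd1), while 9.07% of the tested rows were lower and 7.8% higher. The change was below 0 in 8 of 9 genes, with a median of −0.83 on the log2 scale against 0.066 over all tested rows. The test was limma, fitted to the 3 media at once, with p-values adjusted over all tested rows and a threshold of 0.05. With any 1 of the 6 libraries left out, fewer of all tested rows passed, and calls were lost among the 9 genes too. The changes of Phgdh, Psat1 and Mthfd1 then stayed at −0.87 to −0.78, −1.11 to −1.08 and −1.66 to −1.03. Media that do not overlap were common with 2 libraries each, since 27.9% of the tested rows lay wholly higher in DM than in CM, 20.6% wholly lower and 20.4% wholly higher in DM+Met than in DM, and 28.7% wholly lower and 32.2% wholly higher in DM+Met than in CM.

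**Figure D1:**
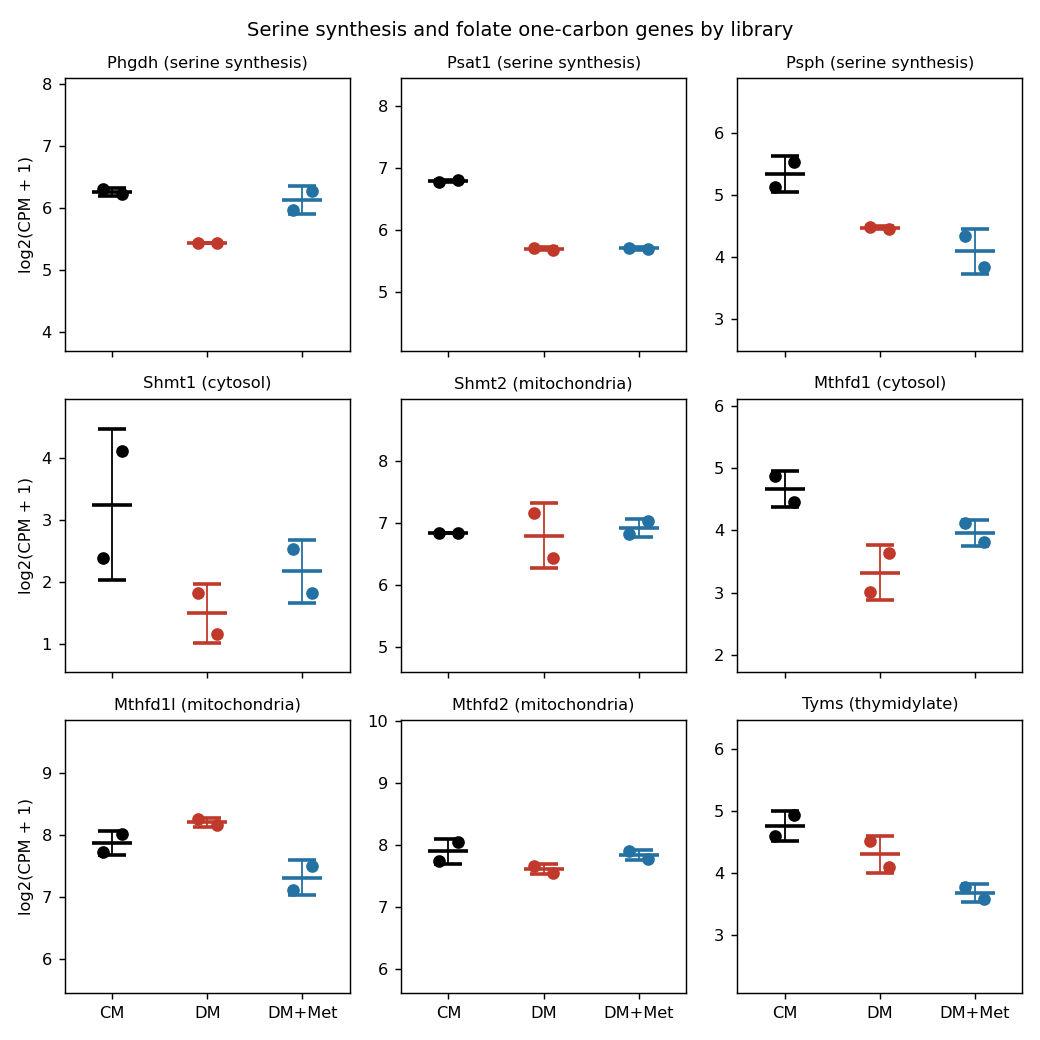
Level of each of the 9 genes, as log2(CPM + 1), in the 2 libraries (points) of CM, DM and DM+Met, with the mean (bar) and SD (whiskers); every panel spans the same range. The Psat1 points of DM and DM+Met lie together, about 1 log2 unit under CM, while those of Phgdh in DM+Met lie near CM.

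Phgdh encodes phosphoglycerate dehydrogenase, the first and committed enzyme of serine synthesis (chr3:98313171-98339969, minus strand). Its log2 level was 6.30 and 6.22 in CM and 5.43 and 5.43 in DM, with 5.96 and 6.28 in DM+Met, from 414 to 912 reads. The DM libraries were the lowest and lay almost on each other, whereas the DM+Met libraries overlapped with CM. From CM to DM, Phgdh decreased by 0.83 on the log2 scale (SE 0.22, limma adjusted p = 0.028), that is 1.77-fold. This call was lost with any library left out, at a limma adjusted p of 0.0792 to 0.123, while the change itself stayed between −0.87 and −0.78. Between DM+Met and DM, Phgdh differed by 0.69 (95% interval 0.21 to 1.17), with both DM+Met libraries above both DM libraries and a limma adjusted p of 0.356. Between DM+Met and CM the difference was −0.14 (95% interval −0.62 to 0.34, limma adjusted p = 0.714).

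Psat1 encodes phosphoserine aminotransferase, the next enzyme, which draws its amino group from glutamate (chr19:15905123-15925059, minus strand). The log2 level was 6.77 and 6.81 in CM and 5.71 and 5.68 in DM, with 5.71 and 5.69 in DM+Met, from 504 to 952 reads. The SD within a medium was 0.020 to 0.025, and the 4 libraries of the dialyzed media could not be separated from one another. From CM to DM, Psat1 decreased by 1.10 (SE 0.20, limma adjusted p = 0.00591), or 2.14-fold, and from CM to DM+Met it decreased by 1.09 (limma adjusted p = 0.00563). The first call was lost without CM library 1 (−1.11, limma adjusted p = 0.0532), and the second without DM+Met library 1 (−1.10, 0.0925) or 2 (−1.08, 0.105). DM+Met and DM differed by 0.0055, with a 95% interval of −0.43 to 0.45. Phgdh and Psat1 thus stood side by side at a difference of 0.69 and 0.0055 after methionine, and the contrast between the genes was not tested.

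Psph encodes phosphoserine phosphatase, which releases serine in the last step (chr5:129765558-129787443, minus strand). Psph had a log2 level of 5.12 and 5.53 in CM and 4.49 and 4.45 in DM, with 4.34 and 3.84 in DM+Met, from 158 to 354 reads. The media did not overlap, with CM highest and DM+Met lowest. Between DM and CM the difference was −0.86 (SE 0.33), which did not pass the test (limma adjusted p = 0.102), whereas from CM to DM+Met it decreased by 1.24 (SE 0.33, limma adjusted p = 0.0323), or 2.36-fold. The latter call was lost with any library left out, at changes of −1.49 to −0.99 and a limma adjusted p of 0.0716 to 0.283. Psph differed by −0.38 between DM+Met and DM (95% interval −1.12 to 0.36, limma adjusted p = 0.776). Added up, the 3 serine synthesis genes stood at 220 and 229 CPM in CM and 115 and 113 in DM, with 132 and 140 in DM+Met.

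By their means, the cytosolic folate enzymes and Tyms were the least abundant members in all 3 media, and Shmt1 was the lowest in every library. Mthfd1 encodes the cytosolic enzyme with dehydrogenase, cyclohydrolase and synthetase activities, which loads formate onto folate (chr12:76254406-76319820, plus strand). Its log2 level was 4.87 and 4.46 in CM and 3.01 and 3.63 in DM, with 4.12 and 3.82 in DM+Met, from 69 reads in DM library 1 to 248 in CM library 1. The DM libraries lay below all others, and DM+Met lay between DM and CM without overlap. From CM to DM, Mthfd1 decreased by 1.35 (SE 0.41), or 2.54-fold, at a limma adjusted p of 0.049. With any library left out that call was lost, at changes of −1.66 to −1.03 and a limma adjusted p of 0.0672 to 0.192, and 8 of 12 other settings also lost it. The difference was 0.65 between DM+Met and DM (95% interval −0.26 to 1.56, limma adjusted p = 0.66) and −0.70 between DM+Met and CM (95% interval −1.61 to 0.21, limma adjusted p = 0.288).

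Shmt1, the cytosolic serine hydroxymethyltransferase (chr11:60788897-60811265, minus strand), was read 37 and 127 times in CM, with 25 and 14 reads in DM, and 57 and 30 in the DM+Met libraries. On the log2 scale it was at 2.38 and 4.11 in CM and 1.83 and 1.16 in DM, with 2.53 and 1.82 in DM+Met. CM library 2 stood apart from the other 5 libraries, and CM library 1 lay within the range of DM+Met. The difference between DM and CM was −1.75 (SE 0.69, limma adjusted p = 0.111), and it was −0.89 without CM library 2 and −2.62 without CM library 1. It was 0.68 between DM+Met and DM and −1.07 between DM+Met and CM, at a limma adjusted p of 0.82 and 0.336. The value between DM+Met and CM also rested on CM library 2, since it was −0.21 without that library.

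In annotation (GENCODE M21), the 3′ end of Shmt1 overlaps that of Smcr8 on the other strand by 184 bases, and whether counting used strand is not given in the sources used here, so reads of both genes cannot be told apart there. The reads of Smcr8 numbered 108 and 50 for CM, 116 and 99 for DM, then 235 and 219 for DM+Met, a different order of libraries from that of Shmt1. It passed the test in no comparison (limma adjusted p = 0.834, 0.599 and 0.163).

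The mitochondrial folate enzymes were the most abundant of the 9 genes, and none of them passed the test. Shmt2, the mitochondrial serine hydroxymethyltransferase (chr10:127517123-127522444, minus strand), had a log2 level of 6.84 and 6.84 in CM and 7.16 and 6.43 in DM, with 6.83 and 7.03 in DM+Met. The DM libraries lay on either side of the other 4, so that the media overlapped in all comparisons. Its differences were −0.0445 between DM and CM (95% interval −0.58 to 0.49), 0.13 between DM+Met and DM (−0.40 to 0.66) and 0.086 between DM+Met and CM (−0.45 to 0.62), with limma adjusted p-values of 0.922, 0.923 and 0.848. The first moved to 0.32 when DM library 2 was left out, and to −0.41 when DM library 1 was. The 3′ end of Shmt2 overlaps that of Ndufa4l2 on the other strand by 32 bases. Ndufa4l2 had 30 to 128 reads, against 888 to 1544 for Shmt2.

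Mthfd2 encodes the mitochondrial dehydrogenase and cyclohydrolase, an enzyme typical of embryonic and dividing cells (chr6:83305704-83326011, minus strand). Its log2 level was 7.75 and 8.04 in CM and 7.67 and 7.55 in DM, with 7.90 and 7.78 in DM+Met, from 1878 to 2836 reads. The DM libraries were the lowest, and the DM+Met libraries fell between those of CM. The difference was −0.29 between DM and CM (95% interval −0.65 to 0.079, limma adjusted p = 0.258), 0.23 between DM+Met and DM (−0.14 to 0.59, 0.707) and −0.056 between DM+Met and CM (−0.42 to 0.31, 0.856).

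Mthfd1l encodes the mitochondrial formate-releasing synthetase (chr10:3972892-4167081, plus strand). Its log2 level was 7.73 and 8.01 in CM and 8.26 and 8.15 in DM, with 7.11 and 7.51 in DM+Met, from 1642 to 3215 reads. DM was highest and DM+Met lowest, with no overlap between media. It was the only member whose change between DM and CM was above 0, at 0.34 (95% interval −0.071 to 0.74, limma adjusted p = 0.234). Between DM+Met and DM it differed by −0.89 (SE 0.18, unadjusted p = 0.000644, limma), the lowest unadjusted p of the 9 in that comparison, and the adjusted p was 0.189. Its difference from CM in DM+Met was −0.56 (limma adjusted p = 0.0671), and under 2 stricter filters on low values, at least 10 reads in every library and a mean log2 level of 2, it passed the test (0.0428 and 0.0472).

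Tyms, thymidylate synthase, methylates dUMP with the folate-bound carbon (chr5:30038546-30073645, minus strand). The Tyms log2 level was 4.59 and 4.94 in CM and 4.51 and 4.09 in DM, with 3.78 and 3.58 in DM+Met, from 130 to 231 reads. The media did not overlap, and DM+Met was the lowest. The difference was −0.46 between DM and CM (SE 0.36, limma adjusted p = 0.414), −0.63 between DM+Met and DM (0.63) and −1.09 between DM+Met and CM (0.0697). The last passed with the filter at a mean log2 level of 2 (limma adjusted p = 0.048). Reads can be shared with the pseudogene Tyms-ps, whose row held 1 to 42 reads per library.

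**Figure D2:**
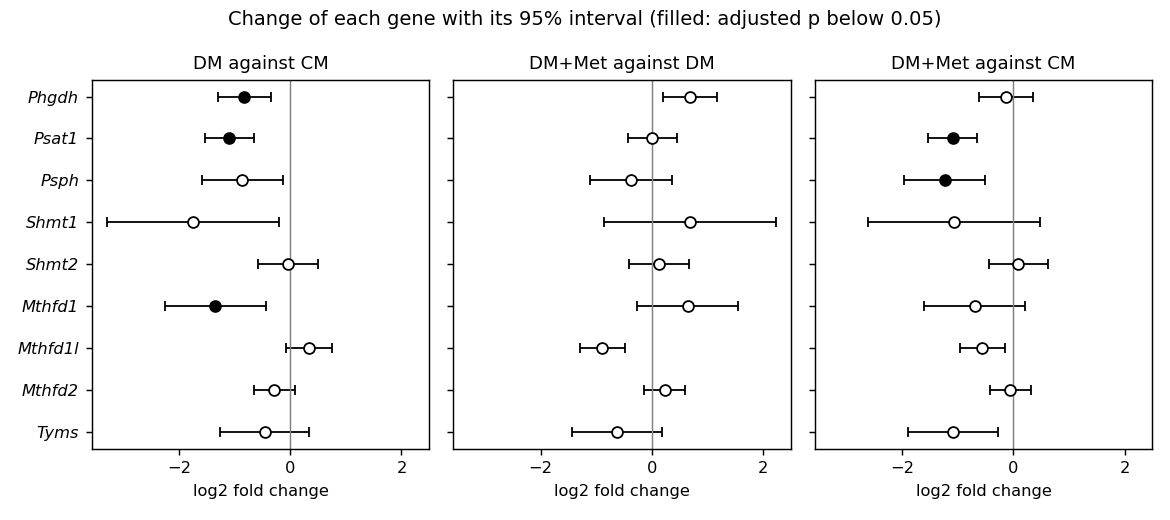
Change of each of the 9 genes on the log2 scale (points) with its unadjusted 95% interval from limma (lines) in the 3 comparisons; filled points passed the test. Filled points stand for Phgdh, Psat1 and Mthfd1 between DM and CM and for Psat1 and Psph between DM+Met and CM, and there are none between DM+Met and DM.

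After methionine was added to DM, 0 of the 9 genes passed the test, in a comparison where 0.0548% of all rows did (7 of 12770). Phgdh and Mthfd1l were the 2 members with an unadjusted p under 0.05 in limma (0.00962 and 0.000644), in opposite directions, and 1238 of all rows were under it. limma-voom on the recovered reads also called 0 members and 21 rows in all. The median change of the members was 0.13, against 0.0090 for all tested rows. Scaling mattered here, because library totals in place of TMM moved the median of all rows to 0.34. Under library totals, Phgdh stood at 1.05 (limma adjusted p = 0.0659) and Mthfd1l at −0.53 (0.157).

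Against CM, 2 of the 9 genes were lower in DM+Met, Psat1 and Psph, where 8.36% of all rows were lower and 6.92% higher. The change was below 0 in 8 of 9 genes, with a median of −0.70 against 0.061 over all rows. The exception was Shmt2, whose DM+Met libraries lay on either side of CM. Library totals moved the median of all rows in this comparison to 0.41, and Psat1 then stood at −0.70 (limma adjusted p = 0.0355) and Psph at −0.86 (0.0976). Both comparisons against CM use the same CM libraries, so their values are not separate evidence of a direction. With any 1 library left out, fewer of all rows passed, and calls were lost among the 9 genes too. The changes of Psat1 and Psph then stayed at −1.105 to −1.074 and −1.49 to −0.99.

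Because a 3′ read does not depend on transcript length, the mitochondrial and cytosolic counterparts were set side by side within each library. In every library the mitochondrial gene was the higher of the pair. Shmt1 and Mthfd1 together stood at 32.5 and 37.3 CPM in CM and 9.59 and 12.6 in DM, with 21.1 and 15.6 in DM+Met, while Shmt2, Mthfd2 and Mthfd1l together stood at 539 and 633, 650 and 555, and 487 and 529 CPM. Set against the mitochondrial sum, which does not include it, the cytosolic sum was 6.02% and 5.89% as large for CM, 1.48% and 2.27% for DM, then 4.33% and 2.95% for DM+Met. The lowest ratios were thus in DM, and the 3 media did not overlap. The close ratios of the CM libraries rest on different parts, with Shmt1 at 4.21 and 16.3 CPM and Mthfd1 at 28.2 and 21.0 CPM in CM libraries 1 and 2.

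Mthfd1l exceeded Mthfd1 by 2.86 and 3.55 log2 units in CM, 5.25 and 4.52 in DM, and 2.999 and 3.69 with DM+Met. The DM libraries stood above the other 4, which overlapped. The gap averaged 3.21 ± 0.49 (SD, n = 2) for CM, 4.89 ± 0.51 for DM and 3.35 ± 0.49 for DM+Met, a difference of 1.68 between DM and CM and of −1.54 between DM+Met and DM. The gap of Mthfd2 over Mthfd1 averaged 3.23 ± 0.50 for CM, 4.29 ± 0.52 for DM and 3.87 ± 0.12 for DM+Met. That of Shmt2 over Shmt1 was 3.60 ± 1.22, 5.30 ± 0.05 and 4.76 ± 0.65. All 3 gaps were wider in both DM libraries than in both CM libraries. The gaps of Mthfd1l and of Mthfd2 subtract the same Mthfd1 level, so they are not separate observations. From CM to DM, Mthfd1 itself changed by −1.35, Mthfd1l by 0.34 and Mthfd2 by −0.29, while Shmt1 changed by −1.75 and Shmt2 by −0.0445. An exact two-sided permutation test of 2 against 2 libraries cannot give less than 0.333. That was the p of each of the 3 gap differences between DM and CM, so none could pass. Which library was left out changed the difference of the Shmt gap between DM and CM from 1.71 to 0.84 (without CM library 2) or 2.57 (without CM library 1), and that of Mthfd2 over Mthfd1 from 1.06 to 0.69 (without DM library 1).

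**Figure D3:**
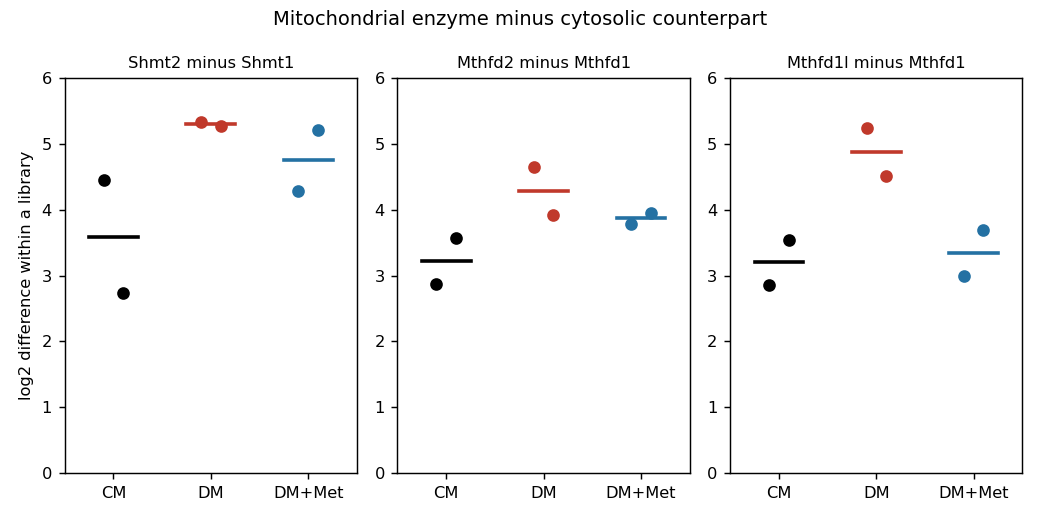
Log2 level of the mitochondrial gene minus that of its cytosolic counterpart within each library (points), with the mean of each medium (line). The DM points are the highest in the Mthfd1l panel, at 5.25 and 4.52, and every point is above 0.

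Across the 6 libraries, members followed each other to different degrees, as a description over points that share their media. The highest correlation was that of Shmt1, of the cytosol, with Mthfd2, of mitochondria (Pearson's r = 0.934). Psat1 went with Psph (r = 0.903) and with Mthfd1 (r = 0.802) and Phgdh with Mthfd1 (r = 0.801), while Phgdh and Mthfd1l ran in opposite directions (r = −0.558). Psph and Tyms, both lowest in DM+Met, had r = 0.921. Of 4154 other rows with a mean log2 level of at least 5, those most like the members' mean standardised level included Rsl1d1 (r = 0.998), Cdv3 (0.988), Cox6a1 (0.986) and Eef2 (0.986).

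Related genes were taken from lists fixed by name. Of all tested rows, 9.07% were lower and 7.8% higher in DM than in CM. In the folate uptake and cycle list, 1 of 9 tested genes passed between DM and CM, lower in DM, and 4 more were too low to test. With 1 library left out, the list had 1 such gene without DM library 2 and 0 without any of the others. Slc19a1, the reduced folate carrier, differed by 0.34 between DM and CM (limma adjusted p = 0.665). Mtr, methionine synthase, had 231 and 83 reads for CM against 24 and 185 for DM, so that the media overlapped.

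In the mitochondrial and glycine branch, 0 of 6 tested genes passed in any comparison by limma, and limma-voom called 0 as well. Between DM and CM, 3 of them had an unadjusted p under 0.05 in limma, beside 4170 of all 12770 tested rows. In the other comparisons 0 of them did. Without DM library 2, 1 passed between DM and CM. Slc25a32, the mitochondrial folate carrier, had a log2 level of 1.497 and 2.03 in CM and 2.58 and 3.49 in DM, with 2.90 and 3.15 in DM+Met, a difference of 1.28 between DM and CM (limma adjusted p = 0.15). In the serine transport list, 0 of 9 passed between DM and CM by limma (1 at an unadjusted p under 0.05) or limma-voom, and 1 passed under 5 of the 12 settings other than leaving out a library. In this list 8 of 9 changes were above 0 with a median of 0.64 against 0.066 over all rows. The 8 include Slc7a10, with 0 reads in both CM libraries, and other genes with few reads in CM. Sfxn1, the mitochondrial serine carrier, differed by 0.0090. Slc38a1, a neutral amino acid transporter, stood at 7.16 and 6.85 in CM and 7.45 and 7.83 in DM, with 7.87 and 7.59 in DM+Met. It was higher in DM+Met than in CM by 0.73 (limma adjusted p = 0.0356), a call lost with any 1 library left out. Slc7a10 had 0 reads in both CM libraries, 12 and 7 for DM, then 80 and 29 for DM+Met, where alone both libraries met the filter, so its test is not read here.

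Beside 9.07% of all rows, 4 of the 10 purine and thymidylate partners were lower in DM than in CM. Their changes were −1.87 for Tk1, thymidine kinase (limma adjusted p = 0.00475), −1.80 for Dut, the dUTPase (0.00222), and −1.40 for Paics of purine synthesis (0.0059), and Dctd, which makes dUMP, had 44 and 28 reads for CM and 0 and 1 for DM, where both libraries were under the filter. Gart and Atic, which take formyl groups from folate, differed by −0.13 and −0.47 (limma adjusted p = 0.809 and 0.311). Tk1, Dut and Paics were also lower in DM+Met than in CM, beside 8.36% of all rows. With 1 library left out, 1 to 3 of the list passed between DM and CM and 0 to 3 between DM+Met and CM.

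Among the 22 genes of the ATF4 response, which in other cells includes Phgdh, Psat1, Shmt2 and Mthfd2, 4 were lower and 1 higher in DM than in CM, beside the 9.07% of all rows that were lower and the 7.8% that were higher. Atf4 itself, the transcription factor, stood at 8.84 and 9.23 in CM and 8.03 and 8.20 in DM, with 8.13 and 8.06 in DM+Met, a change of −0.92 from CM to DM (limma adjusted p = 0.00593). Asns, asparagine synthetase, changed by −1.65 (0.0202), Gars by −0.73 (0.0168), Ddit4 by −1.38 (0.00706) and Atf5 by 2.04 (0.00324). DM+Met against CM had the same 4 lower, and Atf5 (3.24) and Slc7a5 (0.92) were higher, where 8.36% and 6.92% of all rows were. Without 1 library 0 to 4 of the list passed between DM and CM, with 0 in the absence of CM library 2. The 6 between DM+Met and CM became 1 to 5, with 1 in the absence of CM library 2 or of either DM+Met library, and 1 also when limma was fitted without a trend.

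The proliferation list was lower in both dialyzed media, where 9.07% (DM) and 8.36% (DM+Met) of all rows were lower than in CM. All 17 of its genes were lower in DM than in CM, with a median of −1.83, and 16 of 17 were lower in DM+Met than in CM. Their summed level was 2972 and 2836 CPM in CM and 825 and 845 in DM, with 751 and 786 in DM+Met. With 1 library left out, 5 to 9 and 5 to 12 of the 17 passed. Its part in the lower levels of Phgdh, Psat1, Psph and Mthfd1 was not tested. None of the genes of these 6 lists passed between DM+Met and DM by limma or limma-voom. In limma, 1238 of all 12770 tested rows had an unadjusted p under 0.05 there. Among them were 1 of 9 serine transport genes, 1 of 10 purine and thymidylate partners, 5 of 22 genes of the ATF4 response and 4 of 17 of the proliferation list. Of these 4, Mki67, Top2a and Mcm4 were lower in DM+Met and Mcm2 was higher.

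**Figure D4:**
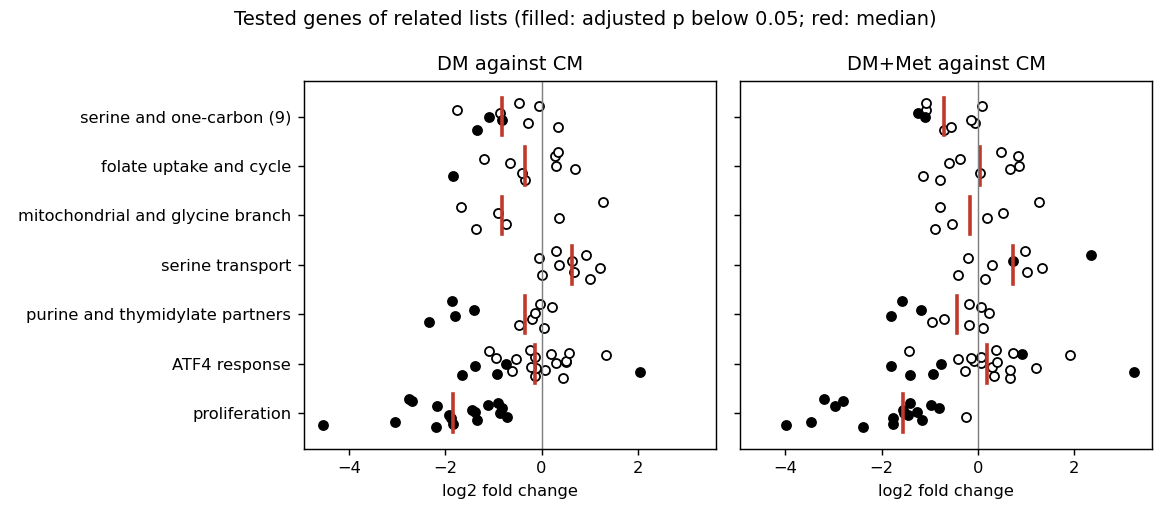
Change on the log2 scale of the 9 genes and of the tested genes of the 6 related lists (points), between DM and CM and between DM+Met and CM, with the median of each list (red line); filled points passed the test in limma. The proliferation genes lie to the left of 0 in both panels, while most serine transport genes lie to the right. Slc7a10, among the latter, had 0 reads in CM.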

How the data were processed

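Mouse CD4 T cells in 3 media were sequenced, 6 libraries in all. The authors deposited log2 values of TMM-scaled CPM plus 1, to 3 decimals, and their equal steps on the linear scale gave the log base and the added 1. Bowtie2, bedtools and build mm10 are named in the submitters' processing notes, without versions. Annotation and strand settings are not given in the sources used here. Each medium is a sample with 2 files. The study describes biologically independent samples, whereas the labels leave their nature unsaid, so p-values measure the spread between these libraries, which may be technical. Files of a medium differed beyond sampling noise (chi-square per degree of freedom 18.2 to 35.9).

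Reads were recovered from the steps, and of the values below 300 reads, 99.6% or more per library came within 0.1 of a whole number. A floor of 3 reads corresponded to a log2 value of 0.323 to 0.469 and covers counting error only. Rows with at least 0.951 CPM (10 reads at median depth) in 2 libraries and 15 reads in total were tested, which left 12770. limma 3.58.1 in R 4.3.3 (lmFit, contrasts and eBayes with a trend, 3 residual and 6.87 prior degrees of freedom) was fitted to the 3 media without covariates, two-sided, with Benjamini-Hochberg adjustment over all tested rows. Fold changes on this scale understate those of genes with few reads. The script was tested on simulated data with the same preset dispersion for every row. That dispersion was not taken from these libraries, so the simulation checks the code and does not bear on the p-values here. Gaps within a library were compared by an exact permutation test (scipy 1.17.1).

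The members and the gene lists were chosen with earlier results of these data known. The text names the 9 members, the related genes that passed a comparison, and Mtr, Slc19a1, Slc25a32, Sfxn1, Gart and Atic whether or not they passed, along with rows from the 5 most like the members. The values of some genes that this rule covers are not reported here. The CCAAT word and the gaps without a pseudocount were added after the data were seen. Alternatives covered scaling, filters, pseudocounts, limma-voom, limma without a trend or with a robust prior, a block, the media in the fit and each library left out. Gene positions and promoters are from RefSeq (GRCm38.p6, the build of mm10), overlaps from GENCODE M21.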

Additional observations from a re-analysis of the deposited data

How the results depend on the processing

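Between DM+Met and DM, 0 of the 9 genes passed under every alternative run. Between DM and CM (3 genes), 1 passed under library totals without Rn45s, without a trend, and with only the media compared in the fit, and 0 to 1 with 1 library left out. In DM+Met against CM (2 genes), 1 passed under library totals, with no filter and with only the media compared, 4 with a mean log2 level of at least 2 and 0 without a trend, and 0 to 1 with 1 library left out. Where a library was left out, its medium had 1 library, which was assumed to vary like the others. Fewer of all tested rows then passed in each comparison. Psat1 between DM and CM passed under all 12 settings other than leaving out a library, Phgdh under 9, Mthfd1 under 4. Psat1 and Psph between DM+Met and CM passed under 11 and 8.

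Changes near 0 altered their sign. Between DM and CM, Shmt2 was at 0.11 under library totals without Rn45s and at −0.41 to 0.32 with 1 library left out. Between DM+Met and DM, Psat1 was at −0.029 under library totals without Rn45s and at −0.012 to 0.023 with 1 library left out, and Shmt2 at −0.24 to 0.50. Against CM, DM+Met under library totals had Phgdh at 0.25 and Mthfd2 at 0.34, and without Rn45s Mthfd2 was at 0.066. With 1 library left out, Phgdh was at −0.29 to 0.0205, Shmt2 at −0.0165 to 0.19 and Mthfd2 at −0.20 to 0.0905. Library totals raised the median of all rows in this comparison to 0.41. Otherwise the cause was not tested.

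The labels do not say whether same-numbered libraries were paired. Their deviations correlated at −0.030 to 0.0048, which does not show how the cultures were set up. A replicate block gave 2, 0 and 2 genes in the 3 comparisons, with Mthfd1 lost (limma adjusted p = 0.0654). The gaps within a library moved by less than their spread in alternatives that kept every library. Precision was limited by 3 residual degrees of freedom and a median SE of 0.44, with 0.69 for Shmt1, the member with the fewest reads.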
